A study of Mus musculus with 24 samples.

Results

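The heat shock chaperones described here are 10 genes, *Hspa1a*, *Hspa1b*, *Hspa8*, *Hsph1*, *Dnajb1*, *Bag3*, *Hsp90aa1*, *Hspb1*, *Hspd1* and *Hspe1*, taken by symbol from a table of 49315 mouse genes, and all 10 were among the 16070 genes with enough counts to be tested. They were followed through 24 RNA-seq libraries of MS03, an immortalized Schwann cell line that lacks *Nf2*, made from *Nf2* flox/flox cells by infection with Cre. The question was how compounds aimed at focal adhesion kinase (FAK, encoded by *Ptk2*) move gene expression in these cells. Cells received the vehicle DMSO or 1 of 7 compounds in DMSO for 24 h, with 3 libraries in each of the 8 groups. IN10018 (also called ifebemtinib), GSK2256098, VS-4718 and defactinib inhibit the kinase and were given at 1 µM. PROTAC FAK degrader 1 was also given at 1 µM, and the PROTACs GSK215 and BSJ-04-0146 were given at 0.1 µM. A PROTAC joins a ligand for its target to a ligand for a ubiquitin ligase, so that the target protein is degraded rather than inhibited alone. All groups, DMSO included, share the *Nf2*-/- genotype and this single line, and no group with intact *Nf2* was part of the comparison.

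Chaperones bind unfolded or partly folded proteins and keep them from aggregating. In the cytosol, HSP70 proteins work with J-domain proteins that hand over substrates and with nucleotide exchange factors that release them, and HSP90 takes over a set of near-native clients, many of them kinases and receptors. In mitochondria the chaperonin HSP60 and its lid HSP10 fold imported proteins. The genes of these families share control by heat shock factor 1 (HSF1), which on proteotoxic stress binds repeats of the letters nGAAn, the heat shock element, near their starts.

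Libraries held 14472462 to 27449516 counts, with GSK215 and BSJ-04-0146 (14472462 to 19331704) and PROTAC FAK degrader 1 (18401466 to 21588406) at the low end. The mitochondrial share of counts was 3.03% to 3.06% in DMSO, 1.85% to 1.89% with PROTAC FAK degrader 1 and 3.83% to 4.25% with GSK215. It was 3.34% to 4.10% with BSJ-04-0146 and 3.42% to 3.89% with defactinib. Of 6 Schwann cell markers, *Sox10* (238 to 2080 counts), *Ngfr*, *Erbb3* and *Pou3f1* had a mean above 1 CPM (counts scaled to library size), while *S100b* and *Egr2* reached at most 18 and 15 counts in any library. Of the 5 macrophage markers, *Ptprc*, *Adgre1* and *Itgam*, which define leukocytes and macrophages, had at most 1 count, *Csf1r* had 3 to 20 and the lysosomal gene *Cd68* had 65 to 239. Their summed level ran from 3.48 to 3.997 CPM in DMSO, from 5.93 to 7.62 CPM with GSK215, from 7.66 to 9.04 CPM with BSJ-04-0146 and from 10.8 to 11.7 CPM with PROTAC FAK degrader 1, where *Cd68* rose (log2 fold change 1.70) and *Csf1r* was not called (-0.62). Endothelial and neuron markers had at most 13 and 4 counts, and the fibroblast markers *Lum* and *Dcn* had at most 0 and 3, whereas the other 2 genes of the fibroblast list, *Col1a1* and *Pdgfra*, ran from 282 to 502 CPM and from 8.55 to 27.9 CPM over all libraries. The summed level of the Schwann markers ran from 40.3 to 41.1 CPM in DMSO, from 24.9 to 27.8 CPM with PROTAC FAK degrader 1, from 92.9 to 107 CPM with VS-4718, from 186 to 195 CPM with GSK215 and from 168 to 186 CPM with BSJ-04-0146. With PROTAC FAK degrader 1 these markers parted, as *Sox10*, *Ngfr* and *Pou3f1* fell and *Erbb3* and *Egr2* rose. The part of these marker genes in the chaperone results was not tested. In bulk RNA, fewer cells of a type and less RNA per cell cannot be told apart.

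The sequences around the starts of these genes are shown first, since the heat shock element is what ties the family together. In 300-base RefSeq windows (250 bases before to 50 after a start, GRCm38.p6), 8 of the 10 genes had an entry, and *Hspa8* and *Hsp90aa1* did not. *Hspa1a* and *Hspa1b*, which encode nearly the same inducible HSP70 protein, lie on the minus strand of chromosome 17, and their windows differ at 4 positions, T44C, C47T, G249T and T276C, given with the *Hspa1b* base first and counted from the 5′ end of the window. The 250 bases before each start are printed because these genes moved most upwards. Capitals mark the pair of inverted units GAANNTTC at position -104 from the start.

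Hspa1b, chr17:34959239-34959488, minus strand: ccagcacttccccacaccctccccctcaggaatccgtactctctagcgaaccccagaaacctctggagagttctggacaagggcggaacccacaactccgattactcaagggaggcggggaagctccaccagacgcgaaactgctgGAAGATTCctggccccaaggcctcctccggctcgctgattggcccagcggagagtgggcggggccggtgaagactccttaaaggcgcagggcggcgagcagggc
Hspa1a, chr17:34972157-34972406, minus strand: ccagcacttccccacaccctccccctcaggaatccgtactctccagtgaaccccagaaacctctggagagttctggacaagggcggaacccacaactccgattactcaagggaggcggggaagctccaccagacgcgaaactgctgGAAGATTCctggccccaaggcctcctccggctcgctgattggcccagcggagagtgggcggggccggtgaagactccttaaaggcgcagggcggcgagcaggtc

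A further 3 sites are printed as short stretches of 30 bases each, with the matching units in capitals. The *Hspe1* site is also the *Hspd1* site, since the mitochondrial pair is transcribed in opposite directions from a shared stretch of chromosome 1. For *Hspd1* it lies in the window of the inner RefSeq start (55087932). The window of the outer start (55088243) holds no match of these units. The *Hsph1* site belongs to the member with the largest fall, and the *Bag3* site to a member that moved little.

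Hspe1 and Hspd1, chr1:55088053-55088082, plus strand: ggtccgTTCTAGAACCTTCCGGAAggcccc
Hsph1, chr5:149636287-149636316, minus strand: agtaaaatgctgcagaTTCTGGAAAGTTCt
Bag3, chr7:128523603-128523632, plus strand: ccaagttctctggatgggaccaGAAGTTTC

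Matches were sought on both strands. The run of 3 units, GAANNTTCNNGAA or its reverse TTCNNGAANNTTC, stood in the windows of 3 of the 8 members, *Hspd1*, *Hspe1* and *Hsph1*, against 0.662% of 27025 genes and 2 of 63 genes of the other chaperone lists below. The 2-unit GAANNTTC stood in 7 of the 8 members (all but *Dnajb1*), against 9.04% of genes, and the 2-unit TTCNNGAA in 3 of 8, against 9.60%. Both are contained in the 3-unit form and so overlap with it. The CCAAT box, often found near heat shock elements, stood in 5 of 8, against 41.1% of genes. A gene was counted when any of its windows held a match, for members and for all genes alike. For *Hspd1*, the inner start gave the heat shock matches and the outer start the CCAAT box. A match is a string of letters and not a bound site, and binding of HSF1 was not measured. The map of matches shows where each lies.

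**Figure D1:**
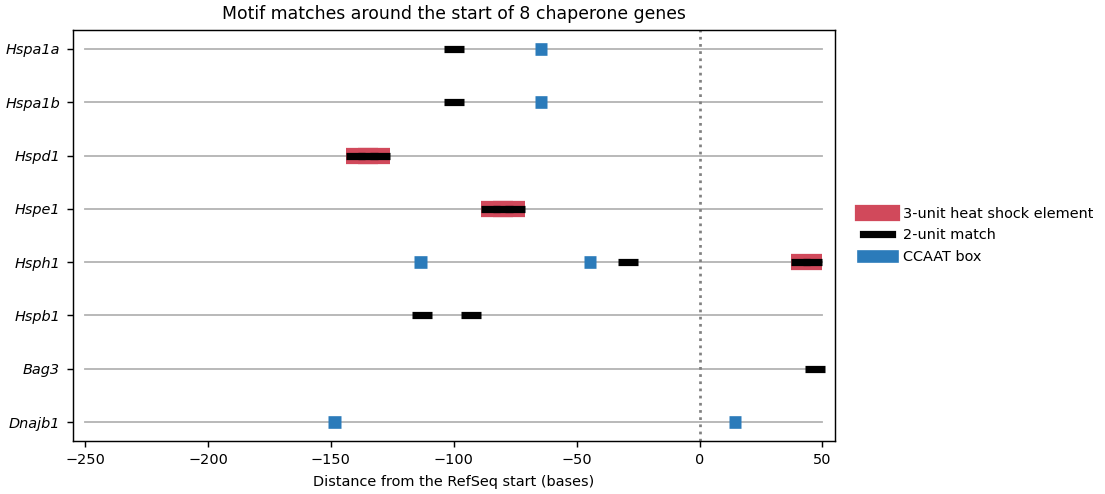
Positions of motif matches in the 300-base RefSeq window of 8 chaperone genes, for 1 start per gene, chosen as the start with the most matches. The horizontal axis gives the distance from the start in bases, and the start is a dotted line. The window of the outer *Hspd1* start, which holds its CCAAT box, is not drawn. Wide red bars are 3-unit heat shock elements, black bars 2-unit matches and blue squares CCAAT boxes. *Hspa1a* and *Hspa1b* share both positions (-104 and -67), the matches that begin at -144 in *Hspd1* and at -89 in *Hspe1* lie in the same stretch of bases, and the matches of *Bag3* (43) and of the *Hsph1* 3-unit element (37) lie after the start.

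Per kilobase of merged exon (GENCODE M21), the members span a wide range in DMSO. *Hspd1* stood at 696 CPM per kb, *Hsp90aa1* at 520.4, *Hspa8* at 360 and *Hspe1* at 257. *Hsph1* followed at 44.5, *Dnajb1* at 18.4 and *Bag3* at 17.1, and *Hspa1b*, *Hspb1* and *Hspa1a* closed the order at 2.75, 0.645 and 0.478 CPM per kb. Among the DMSO libraries the ranges of neighbours overlapped for no pair in this order except *Hspb1* and *Hspa1a* (0.520 to 0.802 and 0.375 to 0.570). The inducible HSP70 genes, the best known of the heat shock response, thus stood at the low end in vehicle-treated cells together with *Hspb1*. How reads matching both *Hspa1a* and *Hspa1b* were counted is not given, so these levels may be too low, which was not tested.

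Against DMSO, the members moved in opposite directions. A gene was called when edgeR's quasi-likelihood test gave a Benjamini-Hochberg adjusted p under 0.05 over all genes tested. Every compound but IN10018 had members called higher and members called lower. PROTAC FAK degrader 1 lowered 7 members and raised 1, and since 66.8% of all genes were called in that comparison (32.7% lower and 34.1% higher), 8 of 10 called is close to the background. GSK215 lowered 6 and raised 2 (27.2% and 27.4% of all genes), and BSJ-04-0146 lowered 5 and raised 2 (26.9% and 27.7%), on totals of 54.7% and 54.6% of all genes called. VS-4718 raised 5 and lowered 4, with 39.2% of all genes called (20.4% higher and 18.9% lower). Defactinib lowered 5 and raised 1, with 22.4% called (11.0% lower and 11.4% higher). GSK2256098 lowered 3 and raised 1, with 12.5% called (6.09% lower and 6.36% higher), and IN10018 lowered 2 and raised 0, with 13.3% called (6.85% lower and 6.44% higher). At an unadjusted edgeR p under 0.05, 2 members (*Dnajb1* and *Hspe1*) would have been higher with IN10018, and DESeq2 called 0. Both were called higher in the fit of the 6 libraries of that comparison alone. With PROTAC FAK degrader 1, the treated libraries did not overlap DMSO, in either direction, for 69.7% of all genes. That share was 60.7% with GSK215, 59.3% with BSJ-04-0146 and 47.6% with VS-4718. It was 35.8% with defactinib, 31.2% with GSK2256098 and 31.0% with IN10018.

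The median log2 fold change of the 10 members was -0.50 with PROTAC FAK degrader 1, -0.40 with GSK215 and -0.40 with BSJ-04-0146, beside medians over all genes of 0.0045, 0.021 and 0.018. With the inhibitors it was -0.16 for defactinib, -0.04 for VS-4718, -0.02 for GSK2256098 and -0.00039 for IN10018, beside -0.0044, 0.0048, 0.0026 and 0.0035. Summed, the members took 0.603% ± 0.00656 (SD, n = 3) of all counts in DMSO and 0.346% ± 0.00479 with PROTAC FAK degrader 1. GSK215 and BSJ-04-0146 stood at 0.421% ± 0.00745 and 0.422% ± 0.00638, and the inhibitors lay between 0.510% ± 0.00976 (VS-4718) and 0.580% ± 0.00528 (IN10018). The abundant members set these sums. The 7 comparisons share the DMSO libraries, so their values stand side by side and are not independent of each other.

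**Figure D2:**
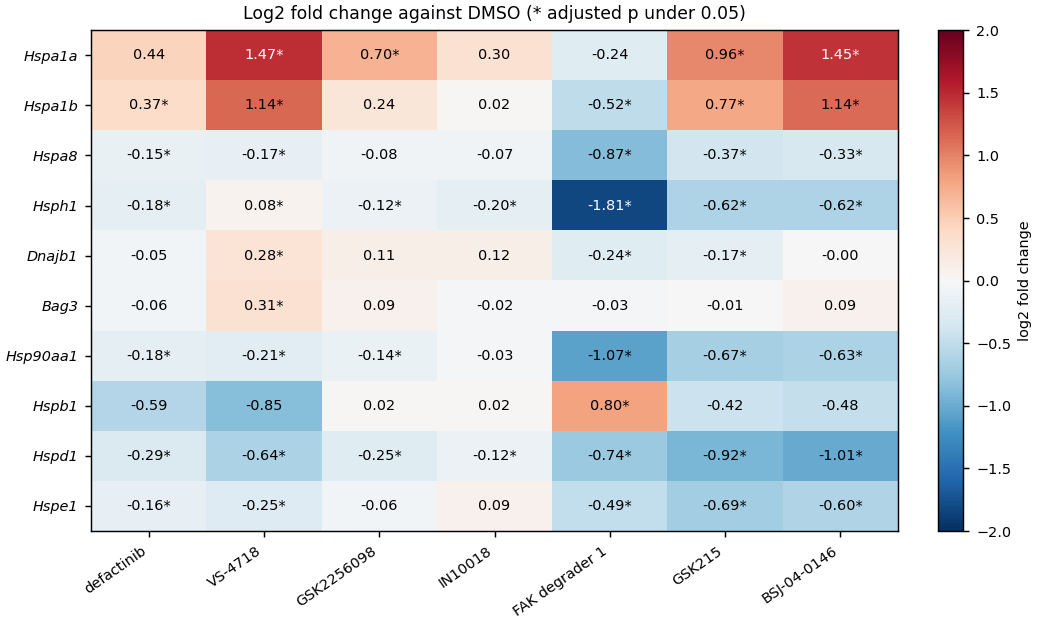
Log2 fold change of each chaperone gene (rows) against DMSO for each compound (columns, FAK degrader 1 being PROTAC FAK degrader 1), in colour and as a number, with an asterisk where the edgeR adjusted p was under 0.05. The rows of *Hspa1a* and *Hspa1b* reach 1.47 and 1.14 with VS-4718, while *Hsph1* reaches -1.81 with PROTAC FAK degrader 1 and *Hspd1* -1.01 with BSJ-04-0146.

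*Hspa1b*, an inducible HSP70 with little expression in unstressed cells, stood at 7.64, 7.86 and 7.66 CPM in the DMSO libraries. It reached 18.6, 16.4 and 16.1 CPM with VS-4718, 12.6, 13.6 and 13.2 CPM with GSK215, and 17.9, 16.6 and 16.7 CPM with BSJ-04-0146. Each of these 9 libraries was above every DMSO library. *Hspa1b* rose 2.21-fold with VS-4718 (log2 fold change 1.14 ± 0.0821 SE, edgeR adjusted p = 1.86e-14), 1.70-fold with GSK215 (0.77 ± 0.0894, adjusted p = 1.56e-09) and 2.20-fold with BSJ-04-0146 (1.14 ± 0.0861, adjusted p = 1.82e-14).

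With defactinib *Hspa1b* was at 10.9, 8.92 and 10.1 CPM, a rise of 1.29-fold (log2 fold change 0.37 ± 0.0896 SE, edgeR adjusted p = 0.00222). With GSK2256098 it was at 9.51, 8.23 and 9.67 CPM, above all DMSO libraries but short of the threshold (0.24 ± 0.0913, edgeR adjusted p = 0.0821). That result passed the threshold without GSK2256098 replicate 2 (0.31). With IN10018 the libraries (8.35, 6.96 and 8.21 CPM) spread to both sides of DMSO, and the estimate was 0.02 with a 95% interval from -0.17 to 0.21. PROTAC FAK degrader 1 went the other way. Its libraries held 5.28, 5.74 and 5.20 CPM, below every DMSO library, a fall to 70.0% of the mean DMSO level (log2 fold change -0.52 ± 0.103, edgeR adjusted p = 3.38e-05). Ordered by mean, *Hspa1b* ran from PROTAC FAK degrader 1 through DMSO, IN10018, GSK2256098, defactinib and GSK215 to BSJ-04-0146 and VS-4718. The libraries of neighbours overlapped from DMSO to defactinib and between the last pair.

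*Hspa1a*, its near-identical neighbour, had a like order of groups, with defactinib and GSK2256098 exchanged, but the libraries of all neighbours in that order overlapped. DMSO libraries held 1.45, 1.69 and 1.11 CPM, from 27 to 45 counts each. VS-4718 brought 4.65, 3.76 and 3.46 CPM, GSK215 2.23, 2.40 and 3.55 CPM, and BSJ-04-0146 3.18, 4.07 and 4.43 CPM. All 9 were above every DMSO library, and the rises were 2.77-fold (log2 fold change 1.47 ± 0.201 SE, edgeR adjusted p = 1.33e-07), 1.94-fold (0.96 ± 0.221, adjusted p = 0.000322) and 2.73-fold (1.45 ± 0.210, adjusted p = 1.88e-07). With limma on log2(CPM + 4), where the added 4 is larger than any DMSO level of this gene, the differences were 0.55, 0.31 and 0.54 and passed as well. With GSK2256098 it was at 2.37, 2.69 and 1.85 CPM, a rise of 1.62-fold (0.70 ± 0.219, edgeR adjusted p = 0.0290). That call was lost without DMSO replicate 1 (0.70), DMSO replicate 3 (0.55), GSK2256098 replicate 1 (0.68) or GSK2256098 replicate 2 (0.56). With PROTAC FAK degrader 1 the libraries (1.19, 1.51 and 0.893 CPM) overlapped DMSO, and the estimate was -0.24 with a 95% interval from -0.76 to 0.27.

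The 2 genes share 1716 words of 50 bases, 58.8% of those in *Hspa1a* and 62.3% of those in *Hspa1b*, and how reads matching both were counted is not given in the sources used here. *Hspa1a* also overlaps *Gm20481* on the opposite strand over 2225 bases, and whether counting used strand is not given either. The split between both genes and the level of each are uncertain for that reason. Both are single-exon genes on chromosome 17 (GRCm38), *Hspa1b* at chr17:34956436-34959238 and *Hspa1a* at chr17:34969190-34972156.

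*Hspa8* encodes HSC70, the constitutive cytosolic HSP70, and it was not called higher than DMSO with any compound. With PROTAC FAK degrader 1 it fell, as *Hspa1b* did. DMSO libraries held 1575, 1525 and 1542 CPM. PROTAC FAK degrader 1 brought 860.2, 856 and 819 CPM, GSK215 1199.95, 1187 and 1194 CPM, and BSJ-04-0146 1241, 1238 and 1221 CPM. None of the 9 reached the lowest DMSO library. *Hspa8* fell to 0.546 of the DMSO level with PROTAC FAK degrader 1 (log2 fold change -0.87 ± 0.0283 SE, edgeR adjusted p = 2.24e-26), to 0.771 with GSK215 (-0.37 ± 0.0281, adjusted p = 1.60e-14) and to 0.797 with BSJ-04-0146 (-0.33 ± 0.0281, adjusted p = 6.67e-13).

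The inhibitors moved *Hspa8* by small amounts in the same direction. Defactinib libraries were at 1379.7 to 1411 CPM (log2 fold change -0.15, edgeR adjusted p = 7.95e-05) and VS-4718 libraries at 1359 to 1419 CPM (-0.17, adjusted p = 7.31e-06). GSK2256098 (-0.08) and IN10018 (-0.07) did not pass the threshold in the fit of all groups, with edgeR adjusted p of 0.0699 and 0.107. All of their libraries were below DMSO, where 31.2% and 31.0% of all genes did not overlap DMSO in either direction. Both passed with DESeq2 and in fits of the 6 libraries alone. With VS-4718, GSK215 and BSJ-04-0146, *Hspa8* was therefore lower in the same libraries in which *Hspa1a* and *Hspa1b* were higher. *Hspa8* lies at chr9:40800984-40810087 and hosts 3 small nucleolar RNAs.

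*Hsph1* encodes HSP110, a large relative of HSP70 that acts as its nucleotide exchange factor. It had the largest range of the members across groups, 1.85 on the log2(CPM + 4) scale. DMSO libraries held 325, 324 and 322 CPM, and those with PROTAC FAK degrader 1 held 88.8, 96.5 and 91.1 CPM. No group of the series came near these 3 libraries, the next lowest library of any group standing at 205 CPM. The gene fell to 0.285 of the DMSO level (log2 fold change -1.81 ± 0.0325 SE, 95% interval -1.88 to -1.75, edgeR adjusted p = 1.55e-34).

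GSK215 (205, 213 and 213 CPM) and BSJ-04-0146 (219, 205 and 208 CPM) both brought *Hsph1* to about 65% of DMSO, with log2 fold changes of -0.62 ± 0.0305 SE each and edgeR adjusted p of 4.73e-20 and 5.14e-20. Defactinib (284 to 288 CPM, log2 fold change -0.18), GSK2256098 (292 to 302 CPM, -0.12) and IN10018 (278 to 285 CPM, -0.20) lowered it slightly, with edgeR adjusted p of 2.26e-05, 0.00619 and 7.65e-06. VS-4718 was the exception, at 344, 343 and 337 CPM, all above DMSO. That difference of 0.08 had an edgeR adjusted p of 0.0334, and the call was lost without any 1 of the 6 libraries (log2 fold change 0.062 to 0.076) and without the low-count filter (0.072). *Hsph1* is at chr5:149614287-149636376.

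*Dnajb1*, the J-domain partner that delivers substrates to the inducible HSP70, moved within a narrow range. DMSO libraries held 59.9, 58.6 and 58.0 CPM. VS-4718 brought 73.9, 71.1 and 69.3 CPM, all above DMSO, and PROTAC FAK degrader 1 brought 50.1, 51.7 and 47.8 CPM, all below. *Dnajb1* rose 1.21-fold with VS-4718 (log2 fold change 0.28 ± 0.0440 SE, edgeR adjusted p = 1.86e-06) and fell to 0.849 with PROTAC FAK degrader 1 (-0.24 ± 0.0470, adjusted p = 2.95e-05). With GSK215 (52.9, 49.5 and 54.2 CPM) it fell to 0.888 (-0.17, edgeR adjusted p = 0.00217), a call that was lost when libraries were scaled by their totals alone (-0.05). BSJ-04-0146 libraries (56.6, 60.1 and 59.1 CPM) overlapped DMSO, with an estimate of -0.00 and a 95% interval from -0.10 to 0.09, and its sign turned to 0.10 with totals alone. Defactinib gave -0.05 with overlapping libraries, and GSK2256098 and IN10018 gave 0.11 and 0.12 with edgeR adjusted p of 0.0934 and 0.0607. In fits of the 6 libraries alone both passed (0.11 and 0.13, edgeR adjusted p of 0.0378 and 0.0235), and IN10018 also passed with totals alone (0.13, adjusted p = 0.0407) and without IN10018 replicate 2 (0.15, adjusted p = 0.0478).

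*Bag3*, an exchange factor that links HSP70 to small heat shock proteins and to selective autophagy, had the smallest range across groups after the barely detected *Hspb1*, 0.338 on the log2(CPM + 4) scale. DMSO libraries held 43.9, 43.4 and 44.1 CPM and VS-4718 libraries 58.7, 50.5 and 53.3 CPM. Only VS-4718 passed the test, a 1.24-fold rise (log2 fold change 0.31 ± 0.0472 SE, edgeR adjusted p = 1.22e-06). In the other 6 groups the libraries ran from 40.2 to 48.2 CPM and the log2 fold changes from -0.06 (defactinib, 95% interval -0.16 to 0.04) to 0.09 (GSK2256098 and BSJ-04-0146, with upper limits of 0.19 each). Scaled by totals alone, the BSJ-04-0146 value was 0.19 and passed the threshold, and the signs for PROTAC FAK degrader 1 and GSK215 turned from -0.03 and -0.01 to 0.05 and 0.11, without passing it. *Dnajb1* (chr8:83608193-83612653) and *Bag3* (chr7:128523616-128546981) were thus raised with VS-4718 together with *Hspa1a* and *Hspa1b*, while with BSJ-04-0146, where the HSP70 pair also rose, neither was called.

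**Figure D3:**
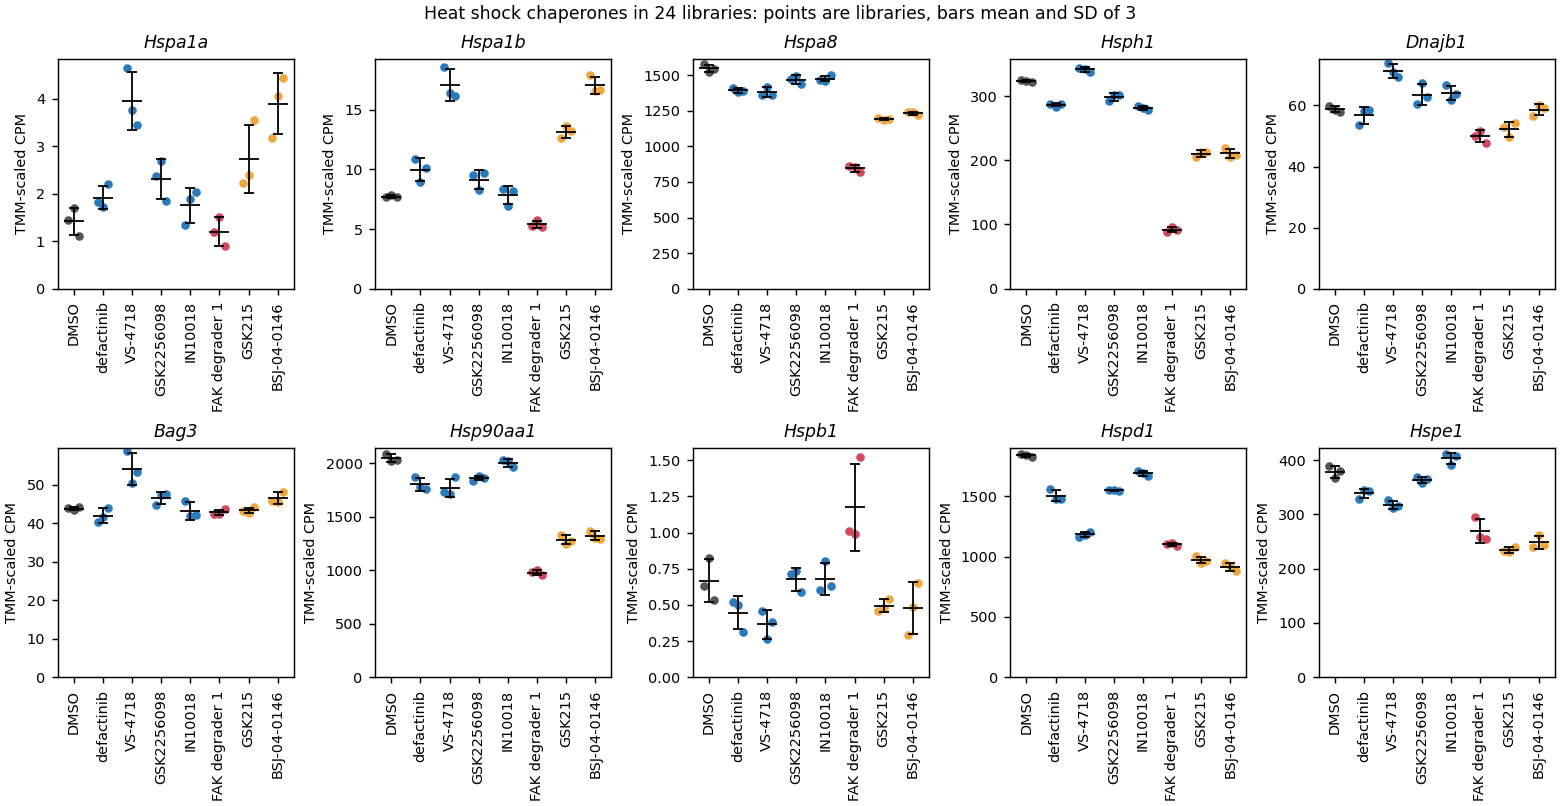
TMM-scaled CPM of the 10 chaperone genes in each of the 24 libraries, 1 panel per gene with its own vertical axis from 0, points being libraries and bars the mean and SD of 3. Grey marks DMSO, blue the inhibitors at 1 µM, red PROTAC FAK degrader 1 at 1 µM and orange the PROTACs at 0.1 µM. *Hspa1b* is highest with VS-4718 and BSJ-04-0146 (means of 17.0 CPM), whereas *Hsph1*, *Hspa8* and *Hsp90aa1* are lowest with PROTAC FAK degrader 1 (92.1, 845 and 977 CPM).

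*Hsp90aa1* encodes HSP90 alpha, the stress-inducible cytosolic HSP90. DMSO libraries held 2088, 2019 and 2031 CPM. PROTAC FAK degrader 1 brought 979, 1000.3 and 952 CPM, GSK215 1330.3, 1248 and 1275 CPM, and BSJ-04-0146 1368, 1305 and 1289 CPM. All 9 were far below DMSO, and those with PROTAC FAK degrader 1 were also below the other 6. *Hsp90aa1* fell to 0.478 (log2 fold change -1.07 ± 0.0335 SE, edgeR adjusted p = 8.07e-27), 0.628 (-0.67 ± 0.0333, adjusted p = 5.75e-20) and 0.645 (-0.63 ± 0.0333, adjusted p = 3.53e-19) of the DMSO level. Defactinib (1755 to 1867 CPM), VS-4718 (1711 to 1869 CPM) and GSK2256098 (1838 to 1878 CPM) lowered it by -0.18, -0.21 and -0.14 on the log2 scale, with edgeR adjusted p of 5.85e-05, 2.27e-06 and 0.00361. IN10018 libraries (1962 to 2031 CPM) overlapped DMSO (-0.03, 95% interval -0.10 to 0.04). The gene lies at chr12:110690605-110702728.

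*Hspb1* encodes a small heat shock protein that holds unfolded proteins without using ATP, and it was barely detected. Libraries held 5 to 29 counts, and DMSO libraries 14, 22 and 13 (0.633, 0.827 and 0.536 CPM). With PROTAC FAK degrader 1 there were 22, 19 and 29 counts (1.01, 0.991 and 1.52 CPM), each above DMSO after scaling. This 1.74-fold rise (log2 fold change 0.80 ± 0.300 SE, edgeR adjusted p = 0.0180) was the only one among the members with that compound, and the call was lost without DMSO replicate 3 (0.67) or without PROTAC FAK degrader 1 replicate 3 (0.58). With limma on log2(CPM + 4) it was 0.15. With VS-4718 the libraries (12, 6 and 10 counts) were below DMSO, at -0.85 with a 95% interval from -1.55 to -0.14 and an edgeR adjusted p of 0.0506, and the result passed without DMSO replicate 3 (-0.99) or VS-4718 replicate 1 (-1.04). For the other 5 compounds the estimates ran from -0.59 to 0.02 and none passed. Changes of the size seen in *Dnajb1* were not detectable at this depth.

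*Hspd1* (HSP60, the mitochondrial chaperonin) and *Hspe1* (HSP10, its lid) share a promoter region on chromosome 1, where their annotated exons overlap over 112 bases on opposite strands (chr1:55077835-55088243 and chr1:55088132-55091307). DMSO libraries held 1853, 1839 and 1826 CPM of *Hspd1*. It was at 949, 918 and 879.9 CPM with BSJ-04-0146, 1002, 946 and 966 CPM with GSK215, 1102, 1115 and 1089.5 CPM with PROTAC FAK degrader 1 and 1166, 1178 and 1207 CPM with VS-4718. Like *Hsph1*, *Hspd1* was called with all 7 compounds, and in every treated library it stood below every DMSO library.

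It fell to 0.498 with BSJ-04-0146 (log2 fold change -1.01 ± 0.0302 SE, edgeR adjusted p = 6.11e-27), 0.528 with GSK215 (-0.92 ± 0.0301, adjusted p = 1.08e-25), 0.599 with PROTAC FAK degrader 1 (-0.74 ± 0.0300, adjusted p = 2.92e-23) and 0.643 with VS-4718 (-0.64 ± 0.0299, adjusted p = 6.32e-20). Defactinib (1475 to 1557 CPM, -0.29), GSK2256098 (1539.98 to 1555 CPM, -0.25) and IN10018 (1668 to 1705 CPM, -0.12) followed, with edgeR adjusted p of 1.87e-09, 8.75e-08 and 0.00393. VS-4718, which raised the cytosolic *Hspa1a*, *Hspa1b*, *Dnajb1* and *Bag3*, thus gave the largest fall of *Hspd1* among the inhibitors.

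*Hspe1* followed *Hspd1* with smaller differences. DMSO libraries held 388, 366 and 380.2 CPM, against 232, 231 and 239.8 CPM with GSK215, 240.2, 262 and 244 CPM with BSJ-04-0146 and 294, 258 and 255 CPM with PROTAC FAK degrader 1. It fell to 0.619 (log2 fold change -0.69 ± 0.0394 SE, edgeR adjusted p = 4.63e-18), 0.658 (-0.60 ± 0.0393, adjusted p = 2.23e-16) and 0.712 (-0.49 ± 0.0389, adjusted p = 3.14e-14) of DMSO, with no overlap of libraries. With VS-4718 (311 to 326 CPM) and defactinib (329 to 344 CPM) it fell by 0.25 and 0.16 on the log2 scale, with edgeR adjusted p of 1.04e-06 and 0.00189. GSK2256098 gave -0.06 with overlapping libraries, and IN10018 gave 0.09 with all libraries above DMSO and an edgeR adjusted p of 0.116, which became 0.0123 in the fit of those 6 libraries alone. There were 4 rows for pseudogenes of *Hspd1* and 5 for those of *Hspe1* in the table, with at most 277 and 13 counts in a library.

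Across the 24 libraries, which share the group structure and the scaling, the log2 levels of *Hsph1* and *Hspa8* correlated with r = 0.966, *Hspa8* and *Hsp90aa1* with 0.955, *Hspd1* and *Hspe1* with 0.941, and *Hspa1a* and *Hspa1b* with 0.898. *Hspb1* was opposed to *Hspa1b* (r = -0.758) and *Hsph1* (-0.675). These 2 values rest on 5 to 29 counts of *Hspb1* per library, with group means that spanned 0.244 on the log2(CPM + 4) scale. Among 10271 genes with a mean of at least 5 CPM, those most like *Hsph1* over the 24 libraries were *Baz1a* (r = 0.996), *Dhx15* (0.994) and *Polr2b* (0.992). Those most like *Hsp90aa1* were *Psmd12* (0.989), *Gspt1* (0.988) and *Idh3a* (0.987). For *Hspa1b* they were *Gatsl2* (0.965), *Pls3* (0.951) and *Cryab* (0.948), the last a small heat shock protein gene. These values describe likeness of pattern over 8 groups of 3 libraries.

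Compounds given at equal dose were then compared with each other in 11 pairs, 10 at 1 µM and 1 at 0.1 µM, with p adjusted over all genes and all 11 pairs together. At 1 µM, PROTAC FAK degrader 1 differed from each inhibitor in 8 to 10 members, 1 of them higher in each case, *Hspb1*. The comparison with VS-4718 called 10 members (66.5% of all genes), 9 lower (33.0%) and 1 higher (33.4%). The comparison with GSK2256098 called 10 (65.5%), 9 lower (32.5%) and 1 higher (33.0%). Over the alternatives and left-out libraries these 2 counts ran from 9 to 10 and from 8 to 10. The comparison with defactinib called 9 (66.6%), 8 lower (32.8%) and 1 higher (33.8%), and that with IN10018 called 8 (61.4%), 7 lower (30.0%) and 1 higher (31.4%). For *Hsph1* the difference from VS-4718 was -1.89 ± 0.0325 SE on the log2 scale (edgeR adjusted p = 6.99e-35), and those from GSK2256098, defactinib and IN10018 were -1.70, -1.64 and -1.61. For *Hsp90aa1* the 4 values ran from -1.04 (IN10018) to -0.86 (VS-4718), and for *Hspa8* from -0.81 to -0.71. *Hspd1* differed less, and least from VS-4718 (-0.10 ± 0.0299, edgeR adjusted p = 0.00473, against -0.62 from IN10018). *Bag3* was lower than in the VS-4718 libraries (-0.34) and the GSK2256098 libraries (-0.12, edgeR adjusted p = 0.0425), and against defactinib and IN10018 the intervals were -0.08 to 0.13 and -0.12 to 0.09. *Hspa1a* was not called against IN10018 (-0.55, 95% interval -1.05 to -0.04, edgeR adjusted p = 0.0762).

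Among the inhibitors, VS-4718 was compared first. Against defactinib 7 members were called (35.5% of all genes), 5 higher (18.8%) and 2 lower (16.7%). *Hspa1a* was higher by 1.03 ± 0.192 SE (2.05-fold, edgeR adjusted p = 2.04e-05), *Hspa1b* by 0.77 ± 0.0792 (1.71-fold, adjusted p = 8.48e-11), *Bag3* by 0.37, *Dnajb1* by 0.33 and *Hsph1* by 0.25, while *Hspd1* was lower (-0.34) and *Hspe1* slightly so (-0.09, adjusted p = 0.0497). *Hspa8* and *Hsp90aa1* did not separate defactinib and VS-4718, with intervals of the difference from -0.07 to 0.04 and from -0.09 to 0.04.

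IN10018 differed from VS-4718 in all 10 members (41.2% of all genes), 5 higher (19.8%) and 5 lower (21.4%), and in 9, with 4 higher, under each of the 6 alternative settings. GSK2256098 differed from VS-4718 in 9 (30.0%), 4 higher (14.3%) and 5 lower (15.7%), all but *Hsp90aa1* (0.07, edgeR adjusted p = 0.0844). In both, *Hspa1a*, *Hspa1b*, *Hsph1*, *Dnajb1* and *Bag3* were lower than with VS-4718, and *Hspd1*, *Hspe1*, *Hspa8* and the barely detected *Hspb1* were higher. *Hspa1b* was lower by -1.12 ± 0.0837 SE with IN10018 (edgeR adjusted p = 1.44e-14) and by -0.90 ± 0.0807 with GSK2256098 (adjusted p = 2.24e-12). *Hspd1* was higher by 0.51 ± 0.0299 (adjusted p = 7.10e-18) and 0.39 ± 0.0298 (adjusted p = 3.45e-14).

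The pairs without VS-4718 came next. GSK2256098 against defactinib called 4 members (17.9% of all genes), *Dnajb1* (0.16), *Bag3* (0.15), *Hspe1* (0.10) and *Hspa8* (0.08), all higher (9.33% of all genes were higher and 8.60% lower). That count was 2 without defactinib replicate 1 or without any 1 of the GSK2256098 libraries. IN10018 against GSK2256098 called 4 (24.9%), *Hspe1* (0.15), *Hspd1* (0.13) and *Hsp90aa1* (0.11) higher (11.9%) and *Hsph1* (-0.08) lower (13.0%). IN10018 against defactinib called 6 (36.0%), with *Hspe1* (0.25), *Hspd1* (0.17), *Dnajb1* (0.17), *Hsp90aa1* (0.15) and *Hspa8* (0.08) higher (18.8%) and *Hspa1b* (-0.35 ± 0.0913 SE, edgeR adjusted p = 0.00187) lower (17.2%).

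At 0.1 µM, BSJ-04-0146 and GSK215 differed in 4 members (25.9% of all genes), 3 higher with BSJ-04-0146 (14.5%) and 1 lower (11.3%). *Hspa1b* was higher with BSJ-04-0146 in all 3 libraries (16.6 to 17.9 CPM against 12.6 to 13.6 CPM), by 0.37 ± 0.0831 SE (1.29-fold, edgeR adjusted p = 0.000290). *Dnajb1* was higher by 0.17 ± 0.0493 (adjusted p = 0.00520) and *Hspa1a* by 0.49 ± 0.198 (adjusted p = 0.0422), the latter with overlapping libraries. *Hspd1* was lower by -0.09 ± 0.0301 (adjusted p = 0.0199), also with overlap. The count was 2 without GSK215 replicate 1, GSK215 replicate 2 or BSJ-04-0146 replicate 3. *Hsph1* (0.00, 95% interval -0.06 to 0.07), *Hsp90aa1* (-0.03 to 0.11) and *Hspa8* (-0.01 to 0.10) were called in neither direction. GSK215 and BSJ-04-0146 were given at a lower dose than the other compounds, so their values are set beside those of PROTAC FAK degrader 1 without a test.

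**Figure D4:**
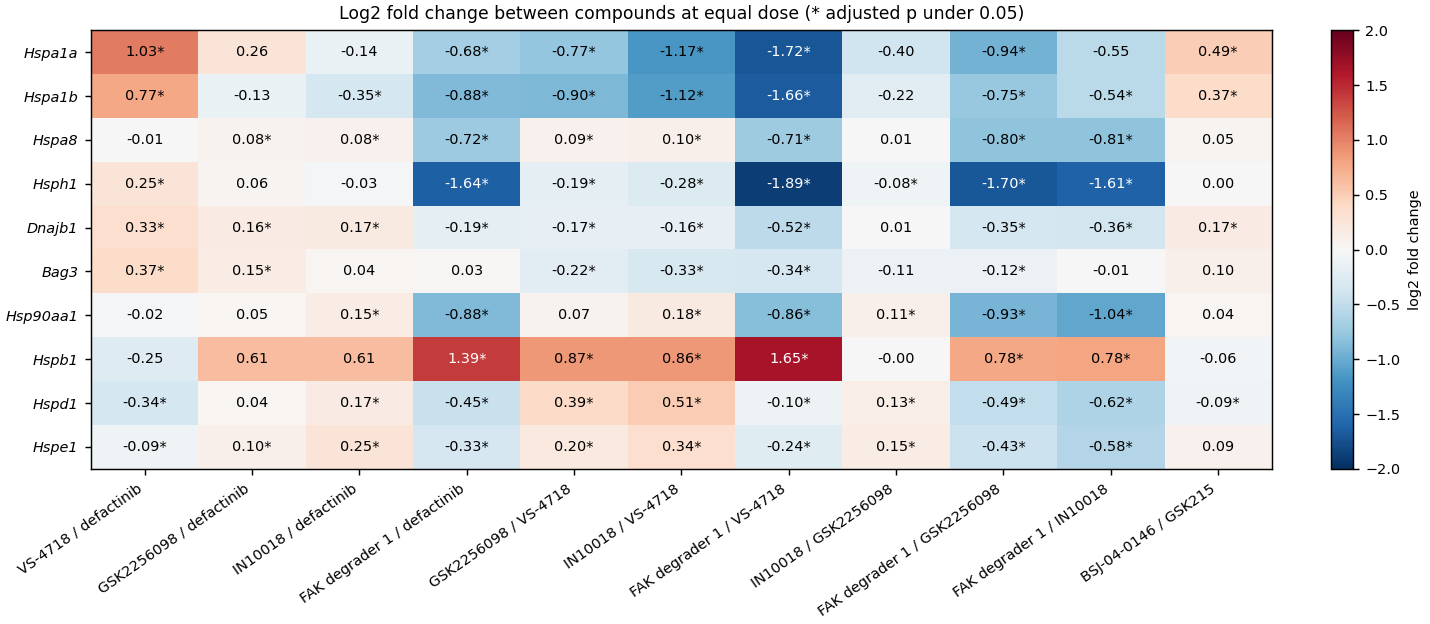
Log2 fold change of each chaperone gene (rows) between compounds given at equal dose (columns, the first named over the second), in colour and as a number, with an asterisk where the edgeR adjusted p over all genes and 11 pairs was under 0.05. The 4 columns of PROTAC FAK degrader 1 are blue for *Hsph1* (-1.89 to -1.61), and *Hspa1a* is higher with VS-4718 than with defactinib (1.03).

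The other chaperone genes were grouped into 9 lists of 77 genes, of which 74 were tested, to place the 10 members within their pathway. With PROTAC FAK degrader 1 28 rose and 31 fell (34.1% and 32.7% of all genes), with GSK215 13 rose and 47 fell (27.4% and 27.2%), and with BSJ-04-0146 19 rose and 34 fell (27.7% and 26.9%). With VS-4718 20 rose and 24 fell (20.4% and 18.9%), with defactinib 1 rose and 34 fell (11.4% and 11.0%), with GSK2256098 2 rose and 18 fell (6.36% and 6.09%), and with IN10018 11 rose and 3 fell (6.44% and 6.85%). The genes named below are up to 3 per list with the largest absolute log2 fold change against DMSO. Each had to be called, to average at least 5 CPM and to have treated libraries that did not overlap DMSO. The lack of overlap in the ranges printed for them therefore follows from this choice. To these, *Hsp90ab1*, *Stub1*, *Grpel1*, *Serpinh1* and *Cacybp* were added after their values were seen.

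Among 8 other HSP70 and HSP110 genes, *Hspa4*, a further HSP110-type exchange factor, went from 701 to 719 CPM in DMSO to 372 to 385 CPM with PROTAC FAK degrader 1 (log2 fold change -0.90 ± 0.0298 SE, edgeR adjusted p = 4.44e-26). *Hspa14* fell as well with that compound (-0.79), and the testis-enriched *Hspa2* rose with VS-4718 (0.83, 10.1 to 13.8 CPM against 6.05 to 7.96 CPM). In all, 2 of the 8 rose and 3 fell with PROTAC FAK degrader 1, and among 8 other J-domain genes 3 rose and 3 fell, both near the 66.8% of all genes called with that compound. *Dnaja1*, another J-domain partner of HSP70, went from 266 to 279.6 CPM to 122 to 128 CPM (-1.12 ± 0.0334, adjusted p = 1.40e-27), while *Dnajb2* (0.66) and *Dnajb4* (0.48) rose. With VS-4718 *Dnaja1* rose instead (0.29), as *Dnajb1* did.

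The list of HSP90 partners held the constitutive *Hsp90ab1* and 14 cochaperones. Of its 15 genes 13 fell with GSK215 (27.2% of all genes), 11 with BSJ-04-0146 (26.9%), 11 with PROTAC FAK degrader 1 (32.7%), 9 with defactinib (11.0%), 6 with VS-4718 (18.9%), 5 with GSK2256098 (6.09%) and 1 with IN10018 (6.85%). Fewer rose, 3 with PROTAC FAK degrader 1 (34.1%), 2 each with BSJ-04-0146 (27.7%), VS-4718 (20.4%) and IN10018 (6.44%), and 1 with GSK215 (27.4%), so that with IN10018 the rises outnumbered the falls. The GSK2256098 count of falls was 2 to 3 without any 1 of its 6 libraries. The fall with IN10018 was lost without any 1 of the DMSO libraries or IN10018 replicate 3, and all 3 of its calls were lost without the latter. *Ahsa1*, which activates the HSP90 ATPase, fell by 0.85 on the log2 scale with PROTAC FAK degrader 1 (106 to 114 CPM against 199.9 to 202 CPM) and the immunophilin *Fkbp4* by 0.68. *Ppid* fell by 0.59 with BSJ-04-0146. *Stub1*, the ubiquitin ligase that works with HSP70 and HSP90, was higher with 5 compounds, from 0.13 with IN10018 to 0.36 with BSJ-04-0146. The call was lost with IN10018 without DMSO replicate 2 or 3 or IN10018 replicate 1 or 3 (0.10 to 0.12), and with VS-4718 (0.14) without DMSO replicate 2 (0.10), DMSO replicate 3 (0.12) or VS-4718 replicate 1 (0.0999). *Hsp90ab1* fell by 0.51 with GSK215 and by 0.21 with PROTAC FAK degrader 1, less than the 0.67 and 1.07 of *Hsp90aa1*.

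TRiC, the cytosolic chaperonin that folds actin and tubulin, and prefoldin, which delivers to it, fell in 12 of 14 genes with GSK215 (27.2% of all genes) and in 12 with BSJ-04-0146 (26.9%), in 10 each with defactinib (11.0%) and VS-4718 (18.9%), and in 8 each with GSK2256098 (6.09%) and PROTAC FAK degrader 1 (32.7%). Fewer rose, 2 each with PROTAC FAK degrader 1 (34.1%) and BSJ-04-0146 (27.7%) and 1 each with GSK215 (27.4%) and VS-4718 (20.4%). With IN10018 edgeR called 0, *Cct6a* alone was lower at an unadjusted p under 0.05, and DESeq2 called 1. *Cct2* went from 748 to 765 CPM in DMSO to 469 to 489 CPM with GSK215 (log2 fold change -0.66 ± 0.0308 SE, edgeR adjusted p = 9.58e-21), and *Cct4* fell by 0.66 as well. The subunits of the complex parted with PROTAC FAK degrader 1. *Cct6a* fell (-0.72 ± 0.0339, 405 to 431 CPM against 684 to 703 CPM, adjusted p = 3.51e-21), and *Cct2* and *Cct4* were at -0.03 and 0.06 and not called.

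The mitochondrial list moved in opposite directions with different compounds. All 8 genes rose with PROTAC FAK degrader 1 (34.1% of all genes rose), although *Hspd1* and *Hspe1* fell in the same libraries. *Lonp1*, a matrix protease, went from 276 to 294 CPM to 665 to 711 CPM (log2 fold change 1.25 ± 0.0371 SE, edgeR adjusted p = 1.36e-27). *Dnaja3*, the matrix J-domain protein, rose by 1.02 ± 0.0407 (114 to 121 CPM against 56.2 to 58.5 CPM, adjusted p = 1.66e-23), and *Hspa9*, mitochondrial HSP70, rose by 0.75 ± 0.0273 (1809 to 1878 CPM against 1098 to 1106 CPM, adjusted p = 9.23e-25).

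With GSK215 7 of the 8 fell (27.2% of all genes), *Hspa9* among them (-0.75), so that *Hspa9*, *Hspd1* and *Hspe1* fell together there. With BSJ-04-0146 2 fell (26.9% of all genes), *Hspa9* (-0.69) and *Dnaja3* (-0.28). With IN10018 3 rose (*Lonp1* 0.31, *Dnaja3* 0.19 and *Grpel1* 0.13, beside 6.44% of all genes), and with defactinib 5 fell (11.0%). The *Grpel1* call was lost without DMSO replicate 2 (0.11) or IN10018 replicate 3 (0.13), the defactinib count was 3 with totals alone and without DMSO replicate 1 or 2, and the BSJ-04-0146 calls were 3 lower and 1 higher without BSJ-04-0146 replicate 3. The mitochondrial share of counts, given above, was lowest with PROTAC FAK degrader 1. It reached its highest value with GSK215, whose libraries overlapped those with BSJ-04-0146 and defactinib. The part of this share in these values was not tested.

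**Figure D5:**
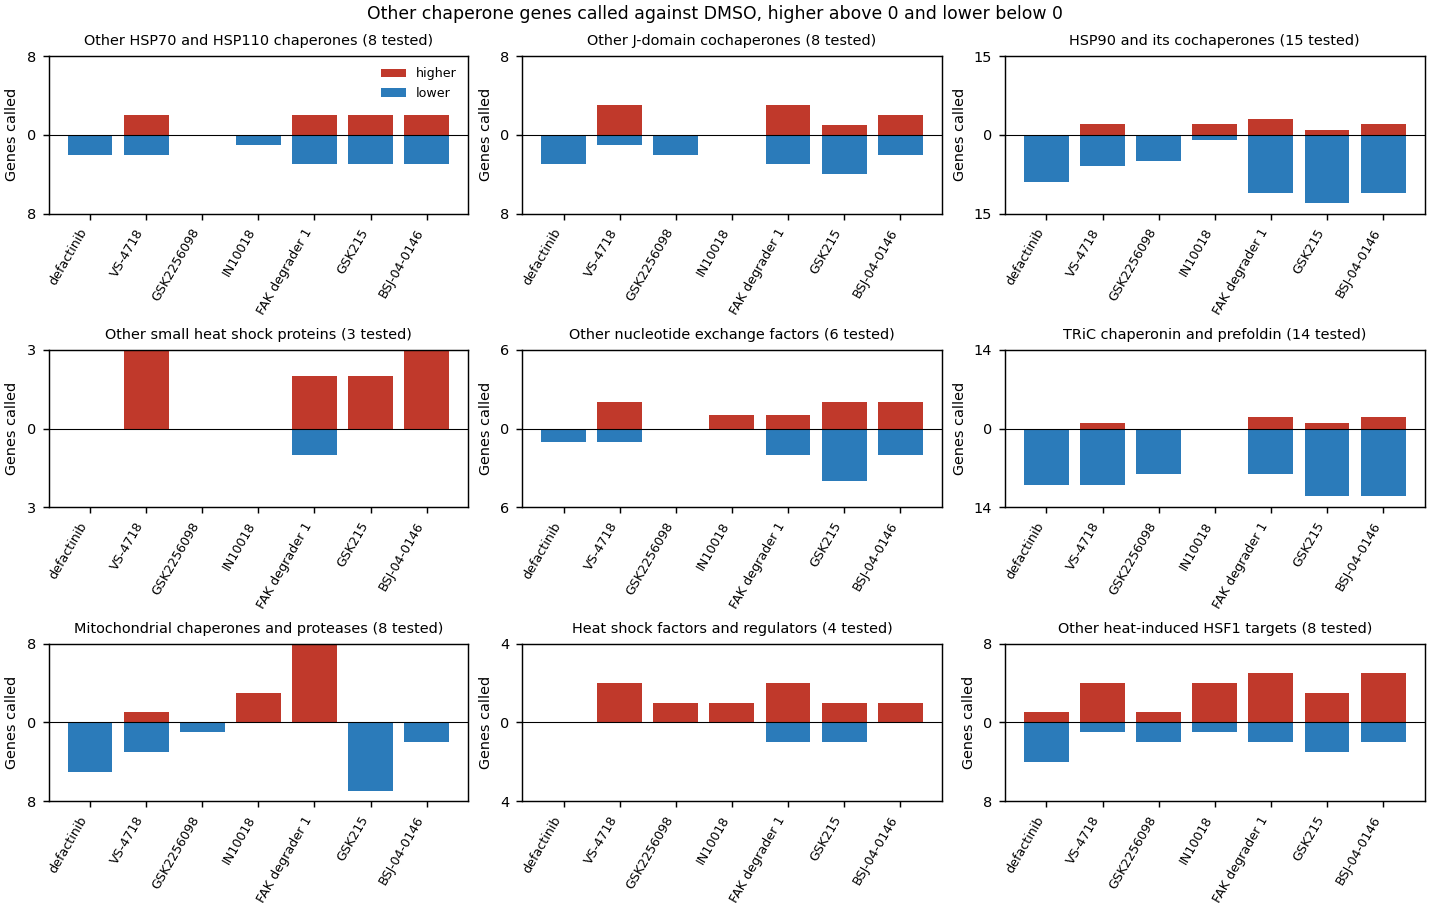
Number of genes called against DMSO in each of 9 lists of other chaperone genes (1 panel per list, vertical axis from 0 to the number tested in both directions), with higher genes in red above 0 and lower genes in blue below 0, for each compound. All 8 mitochondrial genes rise with PROTAC FAK degrader 1 and 7 fall with GSK215, and 12 of 14 TRiC and prefoldin genes fall with GSK215 and with BSJ-04-0146.

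Of 6 other small heat shock protein genes 3 were tested. *Hspb2* rose by 0.90 with PROTAC FAK degrader 1 (17.5 to 19.4 CPM against 9.15 to 11.2 CPM) and *Hspb6* by 0.60. *Cryab*, alpha B-crystallin, rose with BSJ-04-0146 (0.47, 68.5 to 74.0 CPM against 50.3 to 52.3 CPM), GSK215 (0.38) and VS-4718 (0.44) and fell with PROTAC FAK degrader 1 (-0.40). The directions of *Cryab* across these 4 compounds are those of *Hspa1b*. *Cryab* was already among the genes most like *Hspa1b* over the same 24 libraries, so this is no separate observation.

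Of 6 other exchange factors, *Bag2* fell by 0.50 with GSK215 and by 0.46 with PROTAC FAK degrader 1, *Bag4* fell by 0.46 with BSJ-04-0146 and *Hspbp1* by 0.48 with PROTAC FAK degrader 1. GSK215 lowered 4 of the 6 and raised 2 (27.2% and 27.4% of all genes), and 4 genes in all were called without any 1 of the 6 libraries of that comparison.

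The transcript of HSF1 itself changed little. *Hsf1* stood at 87.8 to 90.8 CPM in DMSO and 74.2 to 81.7 CPM with PROTAC FAK degrader 1 (log2 fold change -0.18 ± 0.0473 SE, edgeR adjusted p = 0.000889), a call that was lost when libraries were scaled by totals alone (-0.10). With VS-4718 it was at 0.14, a call that was lost without DMSO replicate 1 (0.13), DMSO replicate 2 (0.11), VS-4718 replicate 1 (0.11) or VS-4718 replicate 3 (0.12). *Hsbp1*, whose product binds HSF1 and restrains it, rose with 6 compounds (not defactinib), most with BSJ-04-0146 (0.60, 107 to 116 CPM against 72.4 to 74.9 CPM). With IN10018 (0.15) the call was lost without DMSO replicate 3 (0.13) or IN10018 replicate 3 (0.10). HSF1 is controlled largely at the protein level, which was not measured.

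The last list held 8 genes that heat induces through HSF1 but that do not encode chaperones of the above families. Of these, 5 rose and 2 fell with PROTAC FAK degrader 1 (34.1% and 32.7% of all genes). *Sqstm1*, the autophagy receptor p62, went from 342 to 362 CPM to 1137 to 1252 CPM (log2 fold change 1.76 ± 0.0348 SE, edgeR adjusted p = 2.73e-33), and *Dedd2* (0.92) and *Zfand2a* (0.78), a proteasome-associated factor, also rose. *Serpinh1*, the collagen chaperone HSP47, fell by 0.38 and *Cacybp* by 0.71. With BSJ-04-0146 5 rose and 2 fell (27.7% and 26.9%), *Serpinh1* (-0.57) and *Cacybp* (-0.63) again being the lower ones, and with VS-4718 4 rose and 1 fell (20.4% and 18.9%). With IN10018 4 rose and 1 fell (6.44% and 6.85%), 5 calls that became 2 without DMSO replicate 2 and 3 without DMSO replicate 3 or IN10018 replicate 3. Defactinib raised 1 and lowered 4 (11.4% and 11.0%), GSK2256098 raised 1 and lowered 2 (6.36% and 6.09%, 1 call in all without DMSO replicate 1, GSK2256098 replicate 2 or GSK2256098 replicate 3), and GSK215 raised 3 and lowered 3 (27.4% and 27.2%). *Sqstm1* is known to respond to other stress pathways too.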

How the data were processed

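RNA was measured in 24 libraries of MS03 cells. The authors deposited unnormalized whole-number counts of reads for each Ensembl gene, and the submitters' processing notes name Trimmomatic 0.36, STAR 2.5.2b, featureCounts (Subread 1.5.2) and GRCm38. The annotation release, the strand setting and the treatment of reads with several matches are not given in the sources used here. The study's methods describe log2(CPM + 4), which was used here as an alternative. Columns were assigned by the sample numbers in their names. Rows without a gene name (0.00811% to 0.0112% of counts) were kept, and library sizes were summed over the genes that passed the low-count filter. Counts were scaled by TMM, filtered by filterByExpr and fitted in 1 model of all 24 libraries with edgeR 4.0.16 (R 4.3.3, quasi-likelihood, 16 residual degrees of freedom), with Benjamini-Hochberg adjustment over 16070 genes and a threshold of 0.05. Levels are CPM over TMM-scaled library sizes, and standard errors and 95% intervals come from the same fit. Between compounds of equal dose, p was adjusted over all genes and 11 pairs together. The procedure was tested on simulated data. Alternatives were DESeq2 1.42.0, library totals, limma 3.58.1 on log2(CPM + 4), fits of 6 libraries, a block for the replicate number, no low-count filter and leaving out each replicate. Named genes of the other lists are the up to 3 with the largest change past the threshold against DMSO over all compounds. Except for the genes added after their values were seen, they needed a mean of at least 5 CPM and no overlap of libraries with DMSO. The members and lists were chosen with earlier results of these data known, and 2 of the Schwann cell markers first listed are not reported here. The labels call the libraries biological replicates and do not say whether they came from separate cultures, so p-values measure the spread between these libraries, which may be technical. Coordinates are from GENCODE M21 (GRCm38), and promoter sequences from RefSeq (GRCm38.p6). *Nf2* (158 to 189 CPM, group means) and *Ptk2* (77.8 to 97.7 CPM) were detected in all groups, and counts per gene do not show whether the deleted part of *Nf2* is absent.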

Additional observations from a re-analysis of the deposited data

How the results depend on the processing

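Of 18 counts of members called, 15 stayed within 1.5 times their value under every alternative and every library left out. With the 6 libraries of the comparison alone, IN10018 against DMSO called 5 members (2 higher and 3 lower) in place of 2. With 1 library left out, GSK2256098 against defactinib called 2 to 3 members in place of 4, and BSJ-04-0146 against GSK215 called 2 to 5 in place of 4. Of 70 log2 fold changes of members against DMSO, 19 changed their side of the threshold or their sign under some alternative, and those past the threshold are given with the results. With library totals alone, *Dnajb1* with BSJ-04-0146 turned to 0.10, *Bag3* with PROTAC FAK degrader 1 to 0.049 and *Bag3* with GSK215 to 0.11, none past the threshold (edgeR adjusted p of 0.0538, 0.406 and 0.0688). Totals alone moved the median of all genes to 0.14 with GSK215 and 0.13 with BSJ-04-0146, and the share of higher genes among those called from 51.9% to 62.6% with VS-4718, from 50.2% to 68.3% with GSK215 and from 50.7% to 67.0% with BSJ-04-0146. With 1 library left out, signs turned for values near 0, in ranges of -0.027 to 0.0997 (*Hspa1b*, IN10018), -0.026 to 0.017 (*Dnajb1*, BSJ-04-0146), -0.12 to 0.22 (*Hspb1*, GSK2256098 and also IN10018) and -0.066 to 0.0042 (*Bag3*, IN10018). The replicate numbers do not pair the libraries (correlations of same-numbered deviations from -0.25 to 0.20), and with the replicate number as a block the member counts were 8 in place of 9 for GSK2256098 against VS-4718, 9 in place of 10 for IN10018 against VS-4718 (as under each of the other alternative settings) and as before for the other 16 comparisons. Of 63 counts over the other lists, 23 moved by over 1.5 times under some alternative or left-out library, among them HSP90 partners with GSK2256098 (2 with totals alone or without the low-count filter and 2 to 3 with 1 library left out, in place of 5) and with IN10018 (1 with limma or the replicate block and 0 to 3 with 1 library left out, in place of 3), TRiC and prefoldin with IN10018 (4 with 6 libraries in place of 0) and mitochondrial genes with BSJ-04-0146 (4 with totals alone in place of 2) and with defactinib (3 with totals alone in place of 5). Of 54 log2 fold changes of named genes of those lists, 6 lost their call under some alternative or left-out library, *Stub1* with IN10018 also with limma and with the replicate block, and none turned its sign. The cause of these shifts was not tested. With limma on log2(CPM + 4), fold changes of low genes were smaller, *Hspa1a* with VS-4718 at 0.55 in place of 1.47. Depth limits *Hspb1* and *Hspa1a* most.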
